A study of Homo sapiens with 6 samples.

Results

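The genes described here are the epidermal growth factor receptor family, its ligands and an inhibitor of the receptors, in HT-1080 cells given the G quadruplex ligand PhenDC3. They were chosen by name: the receptors EGFR, ERBB2 and ERBB3, the ligands HBEGF, AREG, EREG, TGFA and NRG1, and the feedback inhibitor ERRFI1. Of these 9 names, 7 were measured, among 22925 genes in all. No row was found for AREG and EREG, so their expression was not analysed here. HT-1080 is an established human fibrosarcoma line. PhenDC3 is a small molecule that binds G quadruplexes, folded forms of guanine-rich DNA and RNA. Both groups received 1% DMSO for 48 h, 3 libraries with 20 μM PhenDC3 added and 3 with the solvent alone, and poly(A) RNA was sequenced. The labels do not say whether the libraries of a group came from separate cultures, so p-values speak of the spread among libraries, which can be purely technical.

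EGFR, ERBB2 and ERBB3 are receptor tyrosine kinases of the cell surface. A ligand brings receptors together in pairs, and the paired kinases phosphorylate each other and pass the signal to RAS, ERK and PI3 kinase. HBEGF and TGFA bind EGFR, and the neuregulins bind ERBB3 and ERBB4, while ERBB2 has no known ligand of its own and acts as the partner of the others. The ligands are made as membrane proteins, which proteases of the ADAM family cut free. ERRFI1, also called MIG6, is induced by the signal and blocks the receptor kinases.

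Normalized read counts, the values used below, are reads per gene after division by the size factor the authors set for each library. The libraries held between 7371056 and 14292987 reads, and every PhenDC3 library was shallower than every DMSO library. DMSO replicate 3 stood apart from the other DMSO libraries, with chi-square values, per degree of freedom, of 6.47 and 6.99 against them, where every other pair of replicates lay between 1.40 and 2.50. Without it the same number of genes, 2 higher and 3 lower, was called among the 7 described here. Tests are limma on log2(value + 1) over all 16482 genes with a mean of 5 or more, two-sided, with Benjamini-Hochberg adjusted p-values called under 0.05. By that rule 59.6% of all tested genes were called, 29.2% higher and 30.4% lower, so a call by itself does not set a gene apart. Among mesenchymal markers, 6 of 6 had a row and their summed normalized count was 44106 to 48061 in DMSO and 28675 to 29254 in PhenDC3. Of the 5 tested, 4 fell and COL1A1 rose 1.54-fold, from 53.9 to 83.2 normalized reads. Of 8 epithelial markers 5 had a row, and their sum was 2279 to 2801 in DMSO and 2441 to 2684 in PhenDC3. Most of that sum was KRT8, which rose 1.15-fold, and KRT18, which was not called at 1257 and 1125 normalized reads in DMSO and PhenDC3. CLDN4 was not called either, at 66.8 and 68.5. ELF3 went from 0.259 to 10.6, with 1 read over the DMSO libraries and 24 over the PhenDC3 libraries. It passed the minimum mean only through the PhenDC3 libraries, so its call says little. ESRP1, at 0 in all DMSO libraries and 2.30 on average in PhenDC3, lay under the minimum mean. The leukocyte marker CD68, the only one of 4 with a row, rose from 5.98 to 15.4, and the endothelial markers KDR and VWF were too low to be tested. The part of cell composition in the results below was not tested.

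PhenDC3 binds G quadruplexes, so the promoters were searched for letters that could fold into one: 4 runs of 3 or more G, separated by 1 to 7 bases, on both strands, non-overlapping. RefSeq promoter windows on GRCh38.p14, from 250 bases before to 50 after each start, were at hand for 7 of the 9 names. ERBB3 and NRG1 had no window at hand. Of the 7 names with a window, which include AREG and EREG, not analysed for expression, 3 held the pattern. Over all genes with a window the share was 27.9%, and over tested genes with a window 41.2%. The matches in EGFR, HBEGF and TGFA are printed 5′ to 3′ with the G runs in capitals, because these are the names of the 9 whose windows held a match. A base between runs may itself be G, so the last capital stretch of the first TGFA match counts as a pair of runs with a G between them.
EGFR: GGGGaggcaGGGcGGGaggaggaGGG
HBEGF: GGGaggaGGGaGGGGGcggcgccGGG
TGFA, nearer the start: GGGGcGGGaGGGGGGGG
TGFA, farther: GGGcacagaGGGtGGGGGtttGGGG
The EGFR match lies at chr7:55018970-55018995 on the minus strand, opposite to the gene, 22 to 47 bases before the start. That of HBEGF lies at chr5:140346664-140346689, on the gene's own minus strand, 61 to 86 bases before the start. The first TGFA match, at chr2:70554015-70554031, is on the gene's minus strand, and the second, at chr2:70554051-70554075, on the plus strand. Both lie 189 to 249 bases before the start. The windows of ERBB2, ERRFI1, AREG and EREG held no match. EGFR and TGFA each also had another window without a match. Of the other ligands with expression values, NRG2 had 2 matches in 1 of its 2 windows, BTC had 1, and NRG4 and EGF had none. These are matches of letters, not sites shown to fold or to bind PhenDC3.

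Of the 7 measured genes, 2 were higher in PhenDC3 (ERRFI1 and ERBB2), 3 were lower (HBEGF, TGFA and ERBB3) and 2 were not called (EGFR and NRG1). All 7 passed the minimum mean, and their share of calls, 5 of 7, stands beside the 59.6% of all tested genes. The groups did not overlap in those 5 genes, as in 64.1% of all tested genes. Their median log2 fold change was -0.01, against -0.02 over all genes tested. The authors' deposited table calls 3 of the 7, HBEGF, TGFA and ERRFI1, beside 39.0% of the genes for which it has an adjusted p.

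**Figure D1:**
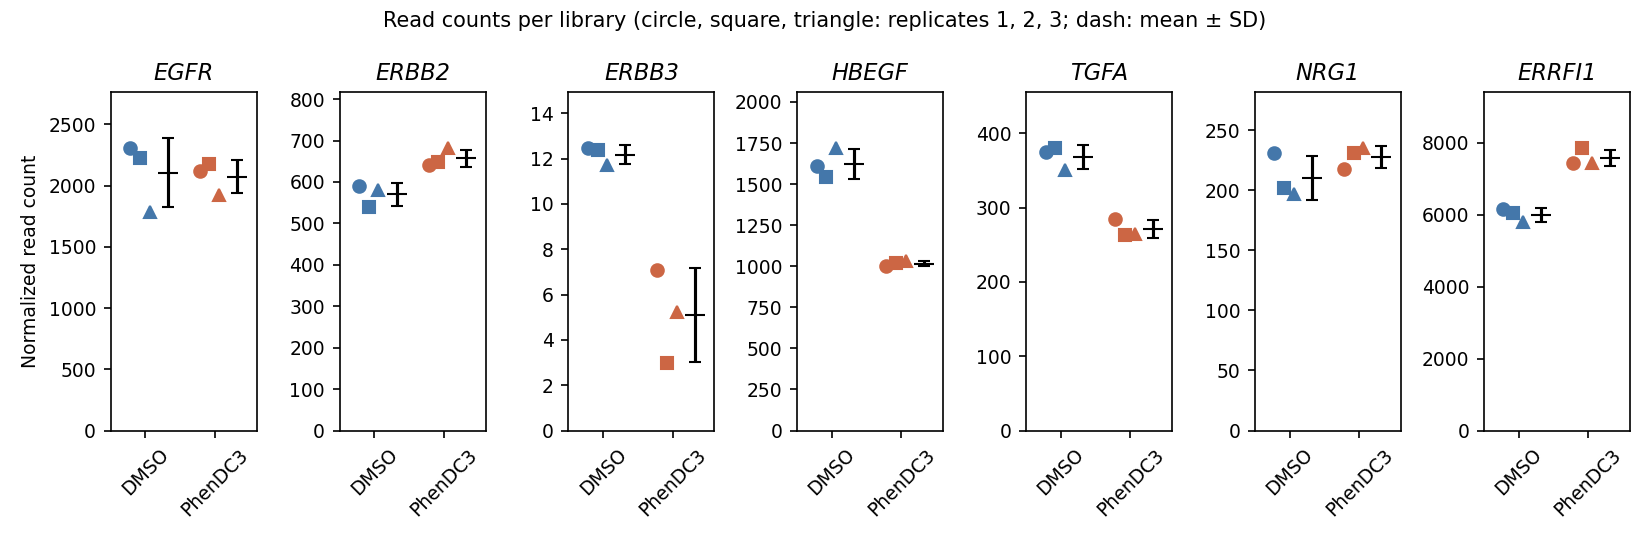
Normalized read count of each of the 7 measured genes in every library, one panel per gene with its own linear axis from 0. Points are libraries and the dash with bars is the mean ± SD (n = 3). HBEGF, TGFA and ERBB3 lie lower in all PhenDC3 libraries, ERRFI1 and ERBB2 higher, and EGFR and NRG1 overlap.

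EGFR, the founding receptor of the family, was not called. It had 2304, 2226 and 1783 normalized reads in DMSO replicates 1 to 3 and 2118, 2181 and 1921 in PhenDC3 replicates 1 to 3. The groups overlapped, and the lowest value of all came from DMSO replicate 3. The means were 2104 ± 281 and 2073 ± 136 (SD, n = 3), a log2 fold change of -0.01 with a 95% interval of -0.19 to 0.16 (limma, adjusted p = 0.892). The interval in fold terms runs from 0.879 to 1.12, so its lower end lies above the ratio found for HBEGF, 0.627. Without DMSO replicate 3 the log2 fold change was -0.13 (limma, adjusted p = 0.0579). An antisense gene, EGFR-AS1, shares 186 exonic bases with EGFR and had 18 reads in DMSO and 6 in PhenDC3. Whether this overlap affected the EGFR value was not tested. The authors' deposited table likewise gave EGFR a log2 fold change of -0.02 and an adjusted p of 0.893.

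ERBB2, the receptor without a ligand, was slightly higher. Its normalized counts were 589.9, 539 and 581 in DMSO and 640.3, 649 and 681 in PhenDC3. The highest DMSO value lay under the lowest PhenDC3 value, so the groups did not overlap, but the gap between them was narrow. The mean went from 569.8 ± 27.1 to 657 ± 21.4, a ratio of 1.15 (limma, log2 fold change 0.21 with SE 0.07, adjusted p = 0.0226). The call was lost without DMSO replicate 2 (limma, adjusted p = 0.127), without PhenDC3 replicate 3 (adjusted p = 0.107) and in the authors' deposited table (adjusted p = 0.0624). ERBB2 shares 571 exonic bases with MIEN1 and 194 with PGAP3, each lying antisense to it, and the strand setting of the authors' counting was not known. MIEN1 had 258 and 276 normalized reads in the 2 groups, and PGAP3 fell from 68.5 to 33.3 (limma, adjusted p = 6.86e-05).

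ERBB3, the receptor that binds neuregulins but has a weak kinase, was close to the limit of detection. It had 16, 16 and 17 reads in the DMSO libraries and 6, 2 and 4 in the PhenDC3 libraries. As normalized counts these are 12.5, 12.4 and 11.7 against 7.10, 2.98 and 5.25, so every PhenDC3 library was lower. The ratio of the summed reads, scaled for depth, was 0.433 with a 95% exact interval of 0.21 to 0.826, which covers counting error only. In limma ERBB3 fell by 1.17 on the log2 scale (SE 0.38, adjusted p = 0.0117). DESeq2 on the recovered reads did not call it (adjusted p = 0.0914), nor did the authors' deposited table (adjusted p = 0.131). No row was found for ERBB4, the fourth receptor, so its expression was not analysed here.

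HBEGF, heparin-binding EGF-like growth factor, had the smallest adjusted p of the 7 genes. DMSO libraries held 1609, 1541 and 1717 normalized reads and PhenDC3 libraries 1000.04, 1019.8 and 1029.96. The PhenDC3 values lay close together and all under the lowest DMSO value. HBEGF fell to 0.627 of its DMSO level, from 1623 ± 88.7 to 1017 ± 15.2 (limma, log2 fold change -0.67 with SE 0.07, adjusted p = 2.79e-08). That change sits at the 14.4th percentile of all tested genes. HBEGF was called in every fit run.

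TGFA, transforming growth factor alpha, the other EGFR ligand measured at a substantial level, also fell. Its normalized counts were 375, 379.7 and 350.3 in DMSO and 285, 264 and 265 in PhenDC3. All 3 PhenDC3 libraries were below all 3 DMSO libraries. The mean dropped from 368 ± 15.8 to 271 ± 12.1, or 0.736 of the DMSO level (limma, log2 fold change -0.44 with SE 0.09, adjusted p = 0.000197). EGF itself, the ligand the receptor is named for, was near the limit, with 64 reads over the DMSO libraries and 34 over the PhenDC3 libraries. Its ratio was 0.939, with a 95% exact interval of 0.601 to 1.45 for counting error only, and limma did not call it (adjusted p = 0.885). BTC, betacellulin, had 1, 0 and 4 reads in DMSO and 2, 3 and 1 in PhenDC3, too few to be tested. EPGN, like AREG and EREG, had no row found, so its expression was not analysed here.

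Among the neuregulins, NRG2 and NRG4 rose and NRG1 was not called. NRG1 had 231, 202 and 197 normalized reads in DMSO and 218, 231 and 235 in PhenDC3, with overlapping groups. Its log2 fold change was 0.12, with a 95% interval of -0.09 to 0.33 (limma, adjusted p = 0.317). NRG2 rose from 98.8, 103 and 77.2 to 138, 128 and 167, which is 1.55-fold in the means (limma, log2 fold change 0.63 with SE 0.14, adjusted p = 0.000598). The groups did not overlap in NRG2, and all 3 PhenDC3 libraries were higher. NRG4, a ligand of ERBB4, rose most of the family, from 17.1, 20.9 and 26.2 to 75.7, 103 and 77.4. The ratio of means was 3.99 (limma, log2 fold change 1.95 with SE 0.20, adjusted p = 4.95e-08), at the 97.2th percentile of all tested genes. NRG4 shares 1917 of its 5031 exonic bases with FBXO22 on the opposite strand, so its value is uncertain if strand was ignored in counting. FBXO22 itself fell, from 701 ± 45.5 to 506 ± 16.7 normalized reads (limma, adjusted p = 2.53e-05). Whether reads of FBXO22 entered the NRG4 value was not tested. NRG3 had no row found and was not analysed here.

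**Figure D2:**
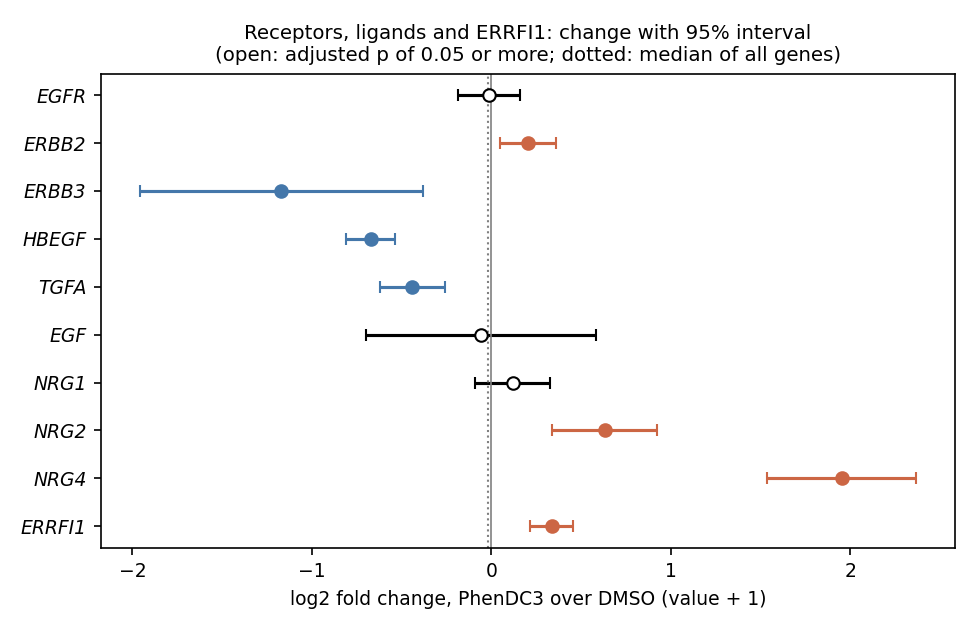
Log2 fold change of PhenDC3 over DMSO for the 10 tested receptors, ligands and ERRFI1, with the 95% interval from limma. Filled points passed an adjusted p of 0.05 and open points did not. NRG4 is highest at 1.95 and ERBB3, with the widest interval, lowest at -1.17.

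ERRFI1, the feedback inhibitor that binds the receptor kinases, rose. Counts were 6151, 6053 and 5786 in DMSO and 7448, 7839.5 and 7439 in PhenDC3. The lowest PhenDC3 library exceeded the highest DMSO library. The rise was 1.26-fold, from 5997 ± 189 to 7575 ± 229 (limma, log2 fold change 0.34 with SE 0.06, adjusted p = 3.67e-05). Larger rises were common, since this one sits at the 70.8th percentile of all tested genes. The authors' deposited table gave the same size of change for ERRFI1, a log2 fold change of 0.34 with an adjusted p of 9.38e-08.

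**Figure D3:**
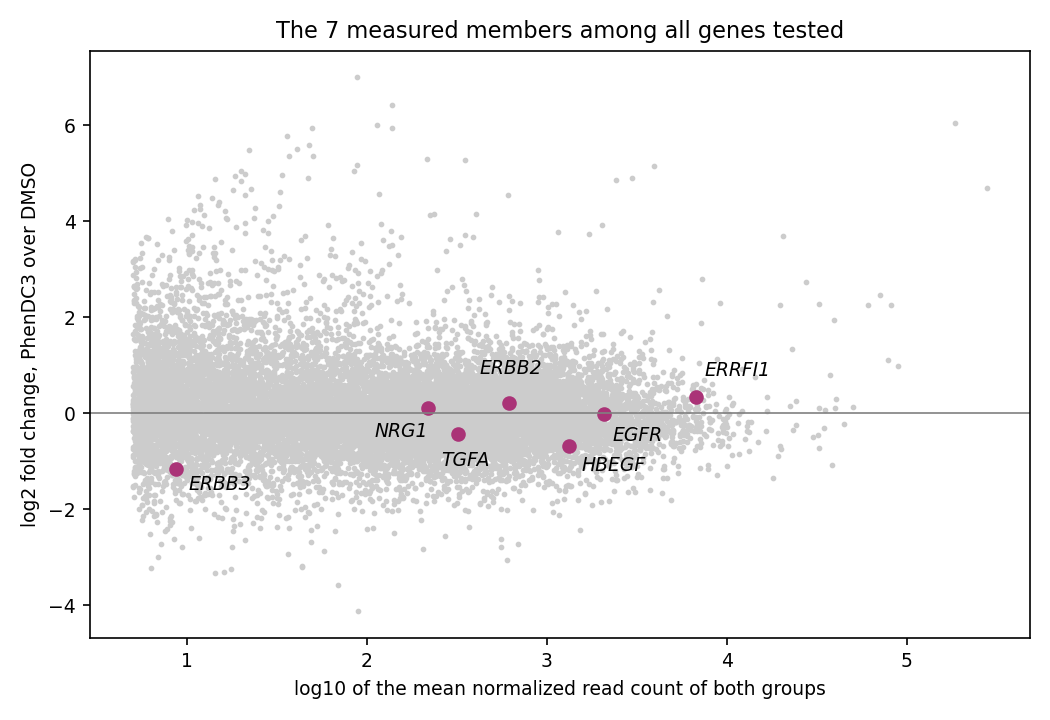
Log2 fold change of each tested gene (grey) against the log10 of its mean normalized read count, with the 7 measured genes marked. The 7 lie within the cloud, between -1.17 for ERBB3 and 0.34 for ERRFI1, and ERBB3 lies at its low-count end.

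Levels of different genes were set side by side per kilobase of the longest coding transcript in GENCODE release 29. On that scale ERRFI1 stood at 1932 ± 60.9 normalized reads per kilobase in DMSO, HBEGF at 680.02 ± 37.2, EGFR at 214 ± 28.7, ERBB2 at 119 ± 5.66, TGFA at 85.5 ± 3.67 and NRG1 at 35.4 ± 3.10. NRG2 followed at 25.0 ± 3.70, NRG4 at 18.5 ± 3.94, EGF at 3.30 ± 1.17, ERBB3 at 2.06 ± 0.068 and BTC at 0.419 ± 0.505. NRG2 and NRG4 overlapped between libraries, and the other neighbours down to ERBB3 did not. In PhenDC3, NRG4 at 73.6 ± 13.0 overlapped TGFA at 62.9 ± 2.81, and NRG2 at 38.8 ± 5.36 overlapped NRG1 at 38.4 ± 1.505. The longest coding transcript of NRG4 has 1159 bases, against 5031 exonic bases of the gene, 1917 of them shared with FBXO22. Reads counted outside that transcript would make the NRG4 level per kilobase too high, which was not tested. EGFR was 1.80 ± 0.273 times ERBB2 per kilobase in DMSO and 1.54 ± 0.145 times in PhenDC3. The order depends on which transcript is used. With the median length of a gene's coding transcripts the DMSO ratio of EGFR to ERBB2 became 3.57, and TGFA, at 388 per kilobase, passed ERBB2, at 176.

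HBEGF supplied the largest share of the ligand transcripts measured, in both groups. Summed over the 7 measured ligands, the normalized reads per kilobase of the longest coding transcript were 847, 817 and 881 in DMSO and 629, 656 and 647 in PhenDC3. Every PhenDC3 sum was lower. The sums and shares are a description, with no test. The share of HBEGF was 80.2% ± 1.39 in DMSO and 66.2% ± 0.871 in PhenDC3, that of TGFA 10.1% ± 0.792 and 9.78% ± 0.65, and that of NRG4 2.17% ± 0.412 and 11.4% ± 1.82. All of these shares depend on the length used. By median transcript lengths the HBEGF share was 54.0% in DMSO and 42.7% in PhenDC3, that of TGFA 30.8% and 28.6%, that of NRG1 10.4% and 14.2%, and that of NRG4 1.74% and 8.73%. These shares leave out AREG, EREG, EPGN and NRG3, and the NRG4 share carries the uncertainty of its length and of its overlap with FBXO22.

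**Figure D4:**
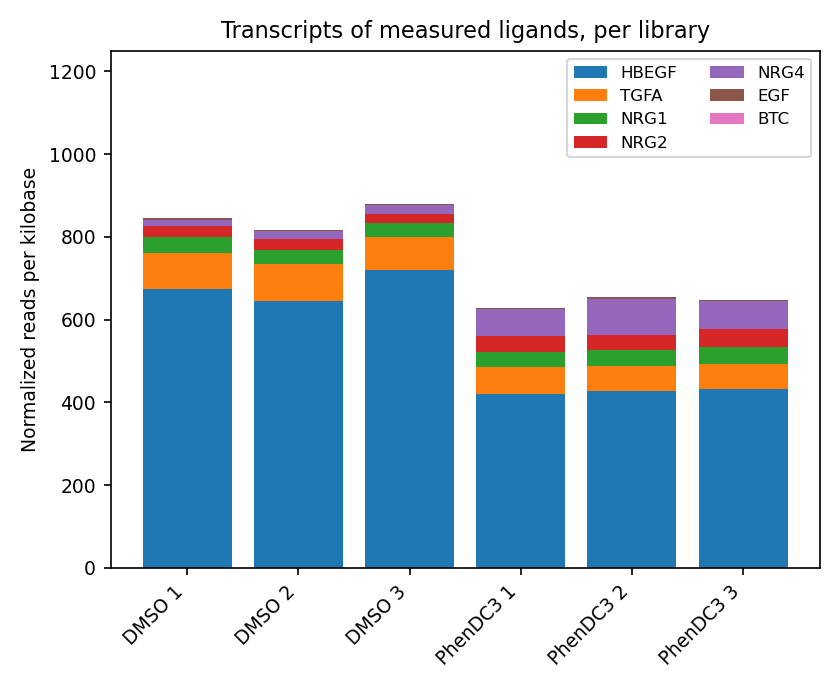
Normalized reads per kilobase of the longest coding transcript for the 7 measured ligands, stacked for each library, on a linear axis from 0. The DMSO stacks reach 817 to 881 and the PhenDC3 stacks 629 to 656. The HBEGF layer is thinner and the NRG4 layer thicker in PhenDC3.

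The genes whose products free the ligands from the membrane went both ways. Of 10 genes for ligand shedding, all tested, 5 fell and 2 rose, with a median log2 change of -0.44 against -0.02 over all genes. ADAM10, the protease that frees EGF and betacellulin, fell from 2317 ± 197 to 1342 ± 59.1 (limma, log2 fold change -0.78, adjusted p = 7.66e-09). ADAM17, the main protease for HBEGF, TGFA and amphiregulin, went the other way, from 1054 ± 89.0 to 1309 ± 49.5 (limma, log2 fold change 0.32, adjusted p = 0.000857). RHBDF2, which carries ADAM17 to the cell surface, fell to 0.604 of its DMSO level (limma, adjusted p = 6.92e-07). RHBDF1, of the same list and named after its value was seen, was not called (limma, adjusted p = 0.0839). It had 519 normalized reads in DMSO and 587 in PhenDC3. ADAM9 and ADAM15, related surface proteases, fell to 0.462 and 0.442. The fifth fall was ADAM12 and the other rise RHBDL2, both low and named after their values were seen. ADAM12 went from 20.8 to 4.38 normalized reads and RHBDL2 from 12.5 to 31.0.

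The next list holds genes that attenuate or sort the receptors. Of 20 named, 19 were tested, 10 rose and 3 fell, with a median log2 change of 0.25. ERRFI1 is one of the 10. TNK2, a kinase that binds EGFR and takes part in its turnover, rose 2.73-fold, from 1253 to 3428 normalized reads (limma, log2 fold change 1.45 with SE 0.07, adjusted p = 7.71e-13). HGS, which sorts ubiquitinated receptors on endosomes, rose 1.77-fold, and RAB5A, the small GTPase of early endosomes, by 0.58 on the log2 scale. LRIG1, a membrane protein that promotes loss of the receptors, fell to 0.508, from 562 to 285 (limma, adjusted p = 2.76e-09). The ubiquitin ligase CBL, named after its value was seen, rose 1.31-fold (limma, adjusted p = 0.00279). It had 1314.5, 1261 and 851 normalized reads in DMSO replicates 1 to 3 and 1430, 1547 and 1526 in PhenDC3. The lowest value came from DMSO replicate 3, so the size of the rise leans in part on that library.

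Adaptors and enzymes next to the receptors make up another list. Of 19 named, 18 were tested, 10 rose and 2 fell, and the median log2 change was 0.24. VAV2, a signalling protein that binds activated receptors, rose 1.69-fold and CRK, an adaptor, 1.51-fold (limma, adjusted p = 5.05e-08 and 5.09e-08). PIK3CB, a catalytic subunit of PI3 kinase, rose 1.32-fold. RASA1, which switches RAS off, fell to 0.665 of its DMSO level (limma, adjusted p = 1.8e-07).

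Transcripts that ERK signalling induces were split evenly. Of 17 named, 16 were tested, 6 rose and 6 fell, with a median log2 change of -0.01. DUSP5 and DUSP4, phosphatases that act on ERK in the nucleus, went opposite ways: DUSP5 rose from 1502 to 2934 normalized reads and DUSP4 fell from 2484 to 1408 (limma, adjusted p = 4.88e-11 and 7.73e-10). FOS fell from 504 to 197 (limma, log2 fold change -1.37 with SE 0.12, adjusted p = 5.26e-09). EGR1 rose from 199 to 1586 (limma, log2 fold change 2.99 with SE 0.10, adjusted p = 2.48e-15). The shares of calls in these 4 lists, between 66.7% and 75%, stand beside the 59.6% of all tested genes.

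**Figure D5:**
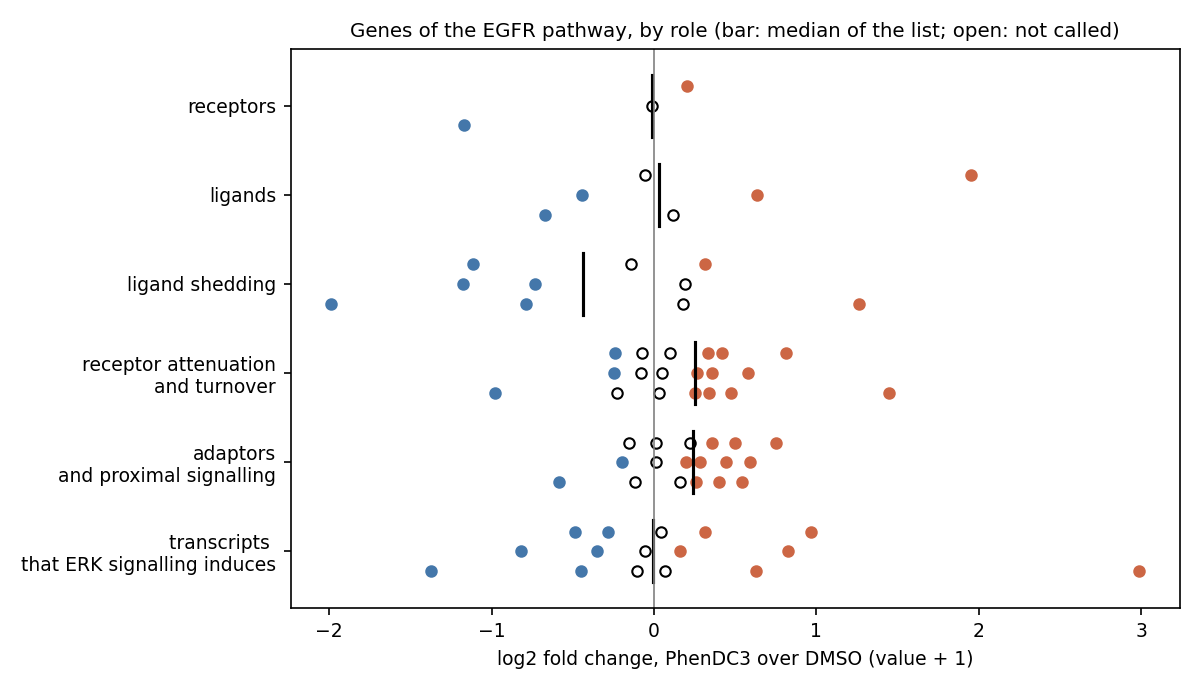
Log2 fold change of every tested gene of the EGFR pathway, grouped by role. Each point is a gene, orange for called higher, blue for called lower and open for not called, and the bar is the list's median. Ligand shedding has its median at -0.44, attenuation at 0.25 and adaptors at 0.24, while ERK-induced transcripts spread from -1.37 to 2.99 around a median of -0.01.

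Genes with the pattern most like 3 of the family were found by root mean square distance, over the 6 libraries, of log2 values centred on each gene's DMSO mean, among 9833 other genes with a mean of 100 or more. With 2 groups this distance mostly reflects the size of the change for HBEGF and ERRFI1. For EGFR, with a log2 fold change of -0.01, it mostly reflects scatter among libraries, such as the low value of DMSO replicate 3. Nearest to HBEGF were PSMD14, a proteasome subunit (distance 0.027), PTGES3 (0.030) and NUP93, of the nuclear pore (0.033). ERRFI1 was most like TRAM1 (0.016), LSM14A (0.018) and MPP6 (0.019). EGFR was most like B3GALNT2 (0.037), SEC24D (0.040) and OGT (0.040).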

How the data were processed

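Poly(A) RNA libraries were made with a stranded kit, per the labels' protocols. The submitters' processing notes name TopHat2 2.0.11, Cufflinks 2.2.1, STAR 2.7, featureCounts, DESeq2 1.18.1 and hg19, without assigning steps. For annotation and strand, settings were not given in the sources used here. Deposited signal columns are gene read counts divided by the authors' size factors: in each column 100% of entries are integer multiples of its smallest nonzero entry (tolerance 1e-06), from which reads were recovered. The log2 fold change that the authors deposited sets PhenDC3 over DMSO, and their deposited p-value, adjusted, is blank for 1332 genes.

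Differences were tested with limma 3.58.1 (R 4.3.3), moderated with a variance trend, on log2(value + 1). edgeR 4.0.16 (TMM) and DESeq2 1.42.0 were run on recovered reads of the same genes. Figures used matplotlib 3.10.9. The pseudocount lowers fold changes of low genes.

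Genes were found by the table's symbol, completed from reference tables for the lists. GENCODE release 29 (GRCh38) gave transcript lengths and overlaps, and RefSeq the promoter windows. The annotation the authors counted with was not known, so the exonic overlaps in it may differ from those given here. No protein sequence was used. The members, lists and tests were chosen with earlier results of these data known. Named genes are all members, receptors and ligands, up to 4 called genes of each other list with the smallest adjusted p, ADAM10, ADAM17 and RHBDF2, and the 3 nearest genes to EGFR, HBEGF and ERRFI1.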

Additional observations from a re-analysis of the deposited data

How the results depend on the processing

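Over all genes, 9818 were called, between 8965 and 9564 when 1 library was left out and 10155 with the replicate number as a block. Same-numbered libraries showed little sign of pairing, with correlations of their deviations of 0.008, 0.071 and 0.027. With libraries rescaled to 1 median, 5584 genes were higher and 4233 lower (56.9% of calls higher, against 49.0%), and of the attenuation genes 11 were higher and 1 lower, against 10 and 3. The block left the count of the 7 genes at 5. Requiring a log2 change of 1 or more left 2692 genes in all, 1 of the 7 (ERBB3), 1 receptor, 1 ligand (NRG4), 4 shedding genes, 1 for attenuation, 0 adaptors and 2 ERK-induced transcripts, by its own construction. At an adjusted p under 0.01, 3 of the 7 and 0 receptors were called. The authors' deposited table called 3 of the 7 and 0 of the receptors. Receptor calls also fell from 2 to 1 with a minimum mean of 20, where ERBB3 is not tested, and with DESeq2, where ERBB3 is lost. The cause of the loss with DESeq2 was not tested. With no variance trend they fell to 1 as well, where ERBB2 is lost (limma, adjusted p = 0.0536). That setting alters only the variance estimate, and the log2 fold change of ERBB2 stayed at 0.21. Leaving out 1 library gave 4 to 5 calls among the 7, 1 to 2 among receptors, 4 among ligands, 7 to 9 for shedding, 10 to 12 for attenuation, 11 to 12 for adaptors and 11 to 12 for ERK-induced transcripts. The ratio of EGFR to ERBB2 per kilobase went from 1.80 to 3.57 with median transcript lengths.

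Without a call, EGFR changed sign with libraries rescaled to 1 median (0.069) and scaled without mitochondrial genes (0.0048), and EGF with the first (0.021) and with thinned reads (0.048). With 1 library left out EGFR ranged from -0.13 to 0.056 and EGF from -0.33 to 0.18. Of the values for named genes, 289 of 295 kept call and sign under other settings and 155 of 162 with 1 library left out. These counts do not cover the genes nearest in pattern, the authors' table or the stricter thresholds on adjusted p and fold change. Thinning, median transcript lengths and the authors' table were added after seeing the data. At the depth of ERBB3, EGF and BTC only large changes are detectable.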
